A study of Mus musculus with 20 samples.

Results

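The genes described here carry sodium and water across the fetal lung, and comprise the 3 subunits of the epithelial sodium channel (Scnn1a, Scnn1b and Scnn1g), a ligase and a kinase that regulate it (Nedd4l and Sgk1), a subunit each of the sodium pump and of a proton pump (Atp1b1 and Atp12a), and 2 water channels (Aqp1 and Aqp5). A probe set, the set of array oligonucleotides that report one transcript, was taken when its only gene symbol was one of these 9 names. This gave 14 of the 22690 probe sets and 9 of the 12393 genes with a probe set of their own. Of the 14 probe sets, 12 had a log2 value above 4 in at least 5 of the 20 arrays and were tested, and they cover all 9 genes. Both untested probe sets were dim throughout, one of Nedd4l at 2.25 to 2.38 in every animal and one of Atp1b1 at 1.77 to 1.83. Dim means a log2 value under 4, and differences that involve dim values are poorly measured in size.

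The study asked what the glucocorticoid receptor (GR, gene Nr3c1) of lung mesenchyme does in the maturing lung. RNA of the left lung lobe was hybridized to Affymetrix Mouse430A_2 arrays, 1 embryo per array, with 5 embryos in each of 4 groups, all on the C57Bl6 background. The mutants (GRCol1-Cre) at embryonic days E16.5 and E18.5 carried Cre from a bacterial artificial chromosome with the Col1a2 locus and lacked the receptor in mesenchymal cells. Their controls (GR flox) at E16.5 and E18.5 kept it there. By this design the receptor was left in place in epithelium, and the whole lobe was measured, so fewer cells of a type and less RNA per cell cannot be told apart in any value given here.

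The fetal lung is filled with liquid that its epithelium secretes, driven by chloride. Toward birth the epithelium turns to absorption. Sodium enters through the epithelial sodium channel on the air-facing side, is pumped out on the blood-facing side by the sodium pump, and water follows, partly through aquaporins. Glucocorticoids are known to raise expression of the channel in fetal lung, and Sgk1 phosphorylates Nedd4l so that fewer channels are removed from the membrane.

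Across all probe sets, the median log2 value per array was 5.70 to 5.87, and arrays of 1 group correlated at 0.989 to 0.998 (Pearson's r across probe sets). Nr3c1 was at 6.31 to 7.50 in E16.5 mutants, against 8.58 to 9.15 in E16.5 controls, and at 7.56 to 8.05 in E18.5 mutants, against 9.02 to 9.57 in E18.5 controls, by its brightest probe set. This left 30.4% and 32.5% of the control level at E16.5 and E18.5. Where these probes lie relative to the deleted part was not examined. Replicate 3 of the E18.5 controls stood apart. On a scale where the mean E16.5 control profile is 0 and the mean E18.5 control profile is 1, it lay at 0.700, against 1.02 to 1.10 for the other E18.5 controls and 0.449 to 0.765 for E18.5 mutants. Each control was left out of the mean used for its own score, so only replicate 3 was scored against an E18.5 mean without replicate 3. Replicate 3 was the lowest E18.5 control for 8 of the 9 genes, all but Aqp1, so the mutant effect on each gene at E18.5 is given with and without it, and other values are given without it where stated. Replicate 5 of the E16.5 controls was the highest of its group for 8 of the 9, all but Scnn1b. On the same scale it lay at 0.216, against -0.0852 to 0.0395 for the other E16.5 controls, and it was the female among them. By Xist and Y-linked genes, 5 of 5 E16.5 mutants and 1 of 5 E16.5 controls were female, as were 2 of 5 E18.5 mutants and 3 of 5 E18.5 controls.

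**Figure D1:**
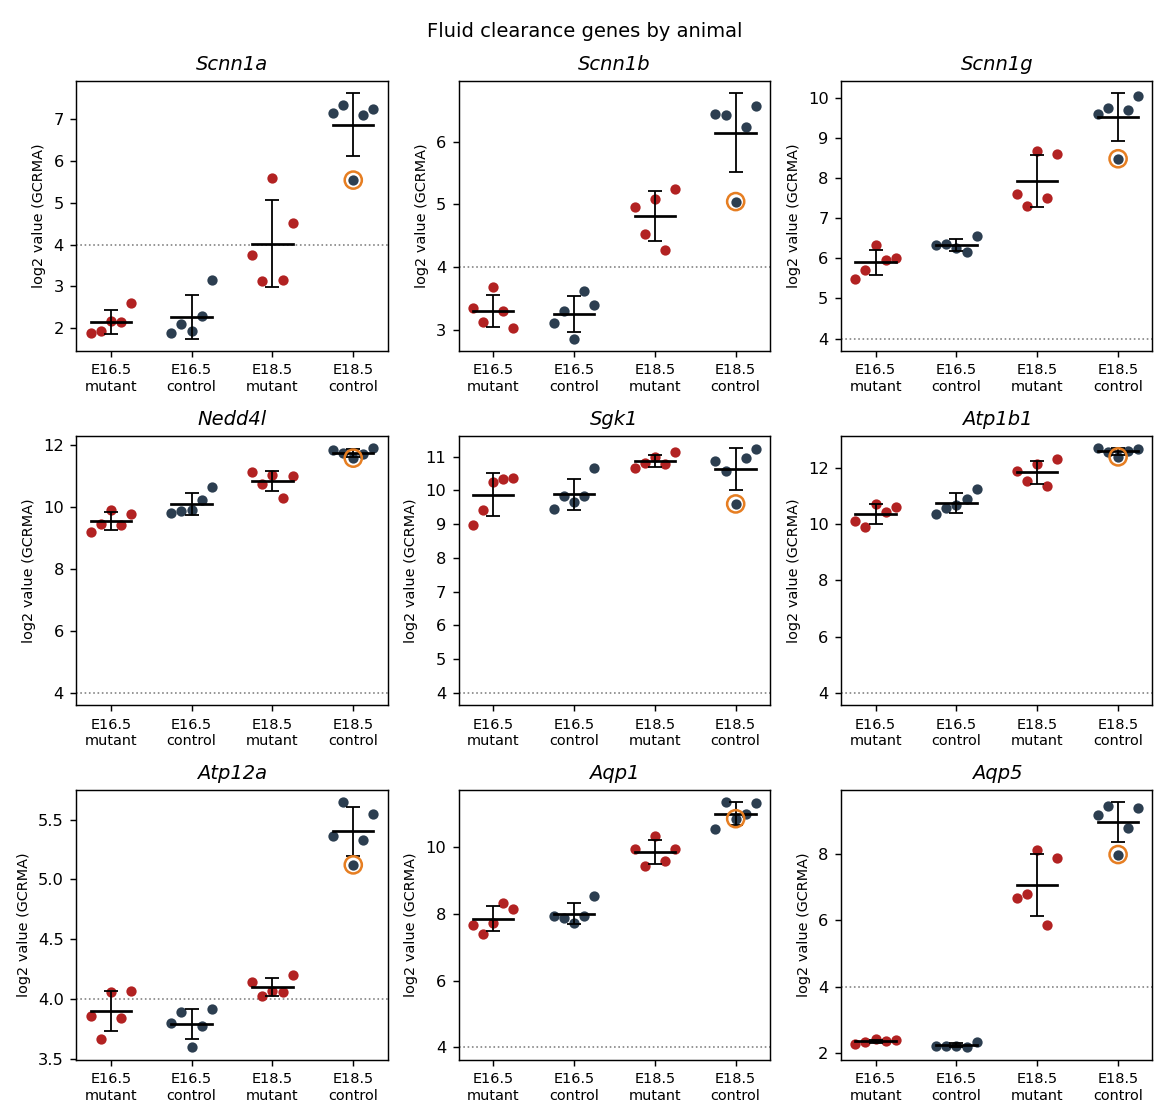
Deposited log2 values (vertical axes) of the 9 genes in each of 20 embryos, by the brightest probe set of each gene. Points are embryos, horizontal lines are group means, bars are SD (n = 5), the dotted line marks the dim limit of 4, and orange rings mark replicate 3 of the E18.5 controls. At E18.5 the mutant mean is below the control mean in every panel except Sgk1.

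All 3 sodium channel subunits were lower in mutants at E18.5. Scnn1a, the alpha subunit that the channel needs to conduct, fell most of the 9 genes, to 13.9% of the control level. Scnn1g (gamma) fell to 33.4% and Scnn1b (beta) to 39.9%. At E16.5 none of the 3 passed the test.

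Scnn1a on chromosome 6 was at 3.75, 3.14, 5.59, 3.15 and 4.51 in the 5 E18.5 mutants (log2, replicates 1 to 5), against 7.14, 7.33, 5.55, 7.10 and 7.25 in the E18.5 controls. All mutants but replicate 3 lay below every control, and mutant replicate 3 lay just above control replicate 3. The log2 difference was -2.85 (SE 0.41, 95% interval -3.71 to -1.98), and it passed limma's test with Benjamini-Hochberg adjustment over all 12517 probe sets tested (adjusted p = 5.99e-05). Without control replicate 3 it was -3.18 (adjusted p = 5.97e-06). Because 3 of the 5 mutant values were dim, the size of the fall is less certain than its direction. At E16.5 Scnn1a was dim in all embryos, at 1.88 to 2.61 in mutants and 1.89 to 3.16 in controls, and the difference of -0.12 (SE 0.41) was not called (limma adjusted p = 1.00).

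Scnn1b was at 4.96, 4.53, 5.08, 4.27 and 5.24 in E18.5 mutants, against 6.44, 6.42, 5.04, 6.24 and 6.57 in E18.5 controls. The groups overlapped only through control replicate 3, which lay below 2 mutants. The difference was -1.33 (SE 0.25, limma adjusted p = 0.000595), and -1.60 (adjusted p = 3.72e-06) without that control. Like Scnn1a it was dim at E16.5, at 3.03 to 3.69 in mutants and 2.87 to 3.62 in controls (difference 0.04, SE 0.25).

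Scnn1g was at 7.61, 7.30, 8.67, 7.51 and 8.61 in E18.5 mutants, against 9.61, 9.75, 8.49, 9.71 and 10.04 in E18.5 controls. Again control replicate 3 was the only control within the range of the mutants, whose replicates 3 and 5 were the high ones. The difference was -1.58 (SE 0.28, limma adjusted p = 0.000388), and -1.84 (adjusted p = 1.62e-05) without that control. Scnn1g was the only subunit above the dim limit at E16.5, where it was at 5.50, 5.71, 6.33, 5.97 and 6.01 in mutants, against 6.34, 6.36, 6.25, 6.16 and 6.57 in controls. Mutant replicate 3 alone reached into the control range, but the difference of -0.43 (SE 0.28, 95% interval -1.02 to 0.15) did not pass (limma adjusted p = 1.00).

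Scnn1g and Scnn1b are neighbours on chromosome 7 with 0 protein-coding genes between them in the RefSeq annotation, and both fell. Their promoter windows, 250 bases before to 50 after the transcript start, are printed as RefSeq gives them (build GRCm38.p6, plus strand), because both genes fell and lie side by side. Capitals mark GGGCGG on either strand, the GC box, which 35.7% of the 32851 mouse promoter windows hold. It is not particular to the pair, since the windows of Atp1b1, Aqp1 and Aqp5 hold it too. Scnn1b, chr7:121864788-121865087, has 1 copy and Scnn1g, chr7:121734229-121734528, has 2.
Scnn1b: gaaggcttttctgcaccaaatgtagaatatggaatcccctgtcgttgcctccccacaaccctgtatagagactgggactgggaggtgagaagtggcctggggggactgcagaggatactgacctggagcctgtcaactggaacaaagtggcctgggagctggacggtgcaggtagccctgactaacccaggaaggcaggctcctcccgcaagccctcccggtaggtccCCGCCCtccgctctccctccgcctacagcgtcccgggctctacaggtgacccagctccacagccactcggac
Scnn1g: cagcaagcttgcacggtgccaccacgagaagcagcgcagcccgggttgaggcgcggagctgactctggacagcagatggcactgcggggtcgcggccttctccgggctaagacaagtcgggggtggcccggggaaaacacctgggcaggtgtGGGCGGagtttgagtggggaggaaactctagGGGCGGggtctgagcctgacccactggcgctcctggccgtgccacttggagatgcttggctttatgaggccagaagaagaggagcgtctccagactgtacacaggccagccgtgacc
Neither window holds TGTTCT, the 6-base core of a glucocorticoid response element, on either strand. That motif occurs in 19.0% of all windows, and its absence from these letters says nothing about the receptor's action elsewhere at the genes.

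The regulators of the channel split. Nedd4l, the ubiquitin ligase that removes the channel from the membrane, fell to 53.1% of the control level at E18.5. Sgk1, the kinase that holds Nedd4l off and a well-known target of the glucocorticoid receptor, was the one gene of the 9 that was not called.

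Nedd4l on chromosome 18 was at 11.12, 10.75, 11.04, 10.30 and 10.99 in E18.5 mutants, against 11.84, 11.75, 11.58, 11.70 and 11.91 in E18.5 controls. Every mutant lay below every control. The difference was -0.91 (SE 0.17, limma adjusted p = 0.000650), and -0.96 (adjusted p = 0.000558) without control replicate 3. At E16.5 Nedd4l was at 9.21, 9.44, 9.90, 9.42 and 9.78 in mutants, against 9.82, 9.87, 9.91, 10.22 and 10.65 in controls. Of the mutants, 4 lay below all controls and replicate 3 was within their range. Its E16.5 difference of -0.55 (SE 0.17, 95% interval -0.91 to -0.19) was the largest of the 9 genes at that stage, with an unadjusted p of 0.00493 and a limma adjusted p of 0.599, and is not called. Without E16.5 control replicate 5 the difference was -0.41, also not called.

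Sgk1 on chromosome 10 was at 10.66, 10.81, 10.99, 10.79 and 11.13 in E18.5 mutants, against 10.86, 10.56, 9.60, 10.95 and 11.22 in E18.5 controls. The mutants lay within the control range, and the lowest control was replicate 3. The difference was 0.24 (SE 0.30, 95% interval -0.39 to 0.87, limma adjusted p = 0.583). Without control replicate 3 it was -0.02 (adjusted p = 0.957), so the sign of the estimate rests on that array. At E16.5 Sgk1 spread widely within both groups, from 8.97 to 10.37 in mutants and from 9.44 to 10.66 in controls, with a difference of -0.01 (SE 0.30, 95% interval -0.65 to 0.62).

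Sgk1 has 6 promoter windows in RefSeq, of which 3 hold TGTTCT on either strand, while none of the 5 windows of Scnn1b, Scnn1g, Atp1b1, Aqp1 and Aqp5 does. That motif occurs in 19.0% of all windows, and the windows are few, so nothing is read from this contrast. No window was matched for Scnn1a, Nedd4l and Atp12a. A window of Sgk1 also holds a full palindrome, AGAACA and then TGTTCT with any 3 bases between them, which contains the 6-base motif on both strands. In all, 3 of the 32851 windows hold it (0.00913%). That window, chr10:21993640-21993939 (GRCm38.p6, plus strand), is shown with the palindrome in capitals, starting 189 bases before the transcript start.
Sgk1: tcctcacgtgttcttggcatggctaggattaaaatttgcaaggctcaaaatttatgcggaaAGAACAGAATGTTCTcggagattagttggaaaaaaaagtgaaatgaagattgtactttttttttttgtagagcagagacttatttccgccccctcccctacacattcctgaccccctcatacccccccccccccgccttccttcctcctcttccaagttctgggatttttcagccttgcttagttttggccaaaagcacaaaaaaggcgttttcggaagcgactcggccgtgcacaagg
The match is a description of the letters, and binding there was not measured.

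Among the pumps, Atp12a, the catalytic subunit of the non-gastric proton-potassium pump, gave the smallest adjusted p of the 9 genes at E18.5. It fell to 40.6% of the control level, with the mutants just above the dim limit. Atp1b1, the beta subunit that brings the sodium pump to the membrane, fell to 59.9% by its brightest probe set.

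Atp12a on chromosome 14 was at 4.15, 4.02, 4.07, 4.06 and 4.21 in E18.5 mutants, against 5.37, 5.64, 5.12, 5.33 and 5.54 in E18.5 controls. Every mutant lay just above the dim limit and below every control. The difference was -1.30 (SE 0.10, limma adjusted p = 2.90e-08), and -1.37 (adjusted p = 4.31e-09) without control replicate 3. With the mutants so near the dim limit, the size of the fall and of its SE is less certain than its direction. At E16.5 Atp12a was at 3.67 to 4.06 in mutants and 3.60 to 3.92 in controls, with 3 of 5 mutants and 5 of 5 controls dim (difference 0.10, SE 0.10).

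Atp1b1 on chromosome 1 was at 11.88, 11.51, 12.13, 11.34 and 12.31 in E18.5 mutants, against 12.70, 12.55, 12.38, 12.57 and 12.66 in E18.5 controls (brightest probe set). All mutants were below all controls. The difference was -0.74 (SE 0.19, limma adjusted p = 0.00710), and -0.79 (adjusted p = 0.00597) without control replicate 3. Its 4 tested probe sets differed in the call. Another one passed at -0.77 (adjusted p = 0.00712), while the remaining ones gave -0.51 (adjusted p = 0.0696) and -0.50 (adjusted p = 0.0613) and did not pass, with all mutants below all controls in each. At E16.5 the 4 differences were -0.33 to -0.43, none of them called, and the brightest probe set read 9.89 to 10.70 in mutants and 10.35 to 11.24 in controls. Without E16.5 control replicate 5 the difference of the brightest probe set was -0.27.

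Both water channels fell at E18.5. Aqp5, the channel of the alveolar type I cell surface facing the air, fell to 26.9% of the control level. Aqp1, which in lung is found mainly in capillary endothelium, fell to 44.9%.

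Aqp5 on chromosome 15 was at 6.66, 6.81, 8.11, 5.86 and 7.87 in E18.5 mutants, against 9.18, 9.45, 7.98, 8.78 and 9.39 in E18.5 controls. Mutant replicate 3 lay above control replicate 3, and otherwise the groups were apart. The difference was -1.89 (SE 0.33, limma adjusted p = 0.000305), and -2.13 (adjusted p = 4.18e-05) without that control. At E16.5 Aqp5 was dim in all embryos, at 2.28 to 2.41 in mutants and 2.18 to 2.34 in controls, so an effect there is poorly measured (difference 0.12, SE 0.33).

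Aqp1 on chromosome 6 was at 9.95, 9.42, 10.34, 9.59 and 9.94 in E18.5 mutants, against 10.53, 11.34, 10.85, 10.98 and 11.31 in E18.5 controls. Every mutant was below every control. The difference was -1.16 (SE 0.21, limma adjusted p = 0.000402), and -1.19 (adjusted p = 0.000415) without control replicate 3. At E16.5 it was at 7.41 to 8.32 in mutants and 7.72 to 8.54 in controls, a difference of -0.15 (SE 0.21).

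The promoter window of Aqp5, chr15:99590778-99591077 (RefSeq, GRCm38.p6, plus strand), is given for comparison with those of the channel subunits. Capitals again mark GGGCGG on either strand. It holds 3 copies, the most of the 5 windows of members other than Sgk1, which hold 9 copies between them.
Aqp5: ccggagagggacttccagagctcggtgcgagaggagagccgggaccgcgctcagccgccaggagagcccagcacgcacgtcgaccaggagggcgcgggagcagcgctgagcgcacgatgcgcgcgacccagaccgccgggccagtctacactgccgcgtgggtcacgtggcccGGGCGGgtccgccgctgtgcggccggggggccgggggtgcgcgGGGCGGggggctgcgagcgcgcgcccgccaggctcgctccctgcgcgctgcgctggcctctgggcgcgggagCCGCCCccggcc

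At E18.5, 8 of the 9 genes and 9 of the 12 probe sets were called lower in mutants (adjusted p under 0.05) and 0 higher, where 15.5% of all 8068 genes tested and 14.4% of all probe sets were called lower. The probe sets not called were that of Sgk1 and the Atp1b1 probe sets with differences of -0.51 and -0.50. The median log2 difference was -1.30 over the 9 genes and 0.03 over all genes tested. For 4 of the 9, namely Nedd4l, Atp1b1, Atp12a and Aqp1, all mutants lay below all controls, which held for 9.13% of all genes. Several members are dim at E16.5 and passed the filter through their E18.5 values, so these counts describe the members and carry no test of the group.

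At E16.5, 0 of the 12 probe sets were called by limma, and 0.200% of all probe sets were. The unadjusted p was under 0.05 for 2, that of Nedd4l and one of Atp1b1 that was also short of a call at E18.5. The median difference was -0.12 over the 9 genes and 0.01 over all genes tested. Scnn1a, Scnn1b and Aqp5 were dim in all 10 E16.5 embryos and Atp12a in 8 of 10. Their differences (-0.12, 0.04, 0.12 and 0.10) enter this median. Dim values cannot tell an absent effect from one too faint to measure. The 5 genes above the dim limit differed by -0.55 (Nedd4l), -0.43 (Scnn1g), -0.40 (Atp1b1), -0.15 (Aqp1) and -0.01 (Sgk1). Sex and genotype largely coincided among the E16.5 embryos. The p-values here measure spread among embryos of a group, and the labels do not say which embryos were littermates.

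**Figure D2:**
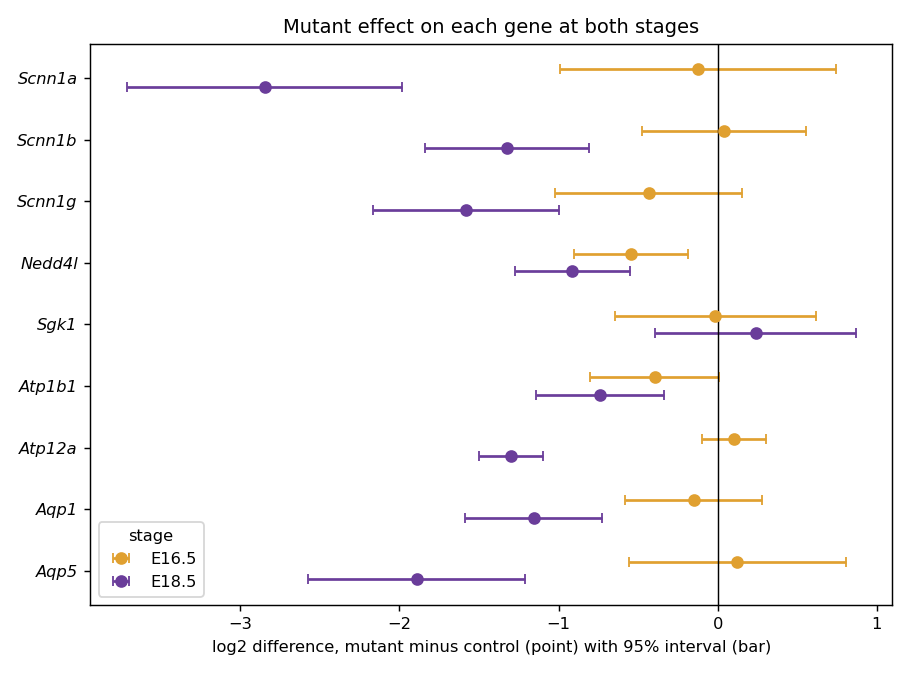
Log2 difference, mutant minus control, on the horizontal axis for each of the 9 genes at E16.5 (yellow) and E18.5 (purple), with limma 95% intervals as bars. The E18.5 intervals of all genes but Sgk1 lie below 0, and those of E16.5 include 0 except for Nedd4l, whose interval is -0.91 to -0.19.

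All 9 genes rose in controls as birth approached. In E18.5 against E16.5 controls, all 9 genes and all 12 probe sets were called higher by limma, where 35.2% of all genes and 32.0% of all probe sets were. The largest rise was that of Aqp5, 6.72 on the log2 scale (SE 0.33), followed by Scnn1a at 4.60 (SE 0.41), Scnn1g at 3.18 (SE 0.28), Aqp1 (7.98-fold) and Scnn1b at 2.88 (SE 0.25). Atp1b1 rose by 1.83 (SE 0.19), Nedd4l by 1.66 (SE 0.17) and Atp12a by 1.61 (SE 0.10). In these 8 genes every E18.5 control lay above every E16.5 control. The share of all genes with such a separation was not computed, so nothing is read from it. Since Aqp5, Scnn1a, Scnn1b and Atp12a were dim in E16.5 controls, their rises are uncertain in size. These genes also passed the filter through their E18.5 values, which favours a rise, so nothing is read from the counts of genes and probe sets called higher.

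Sgk1 had the smallest rise in controls, 0.75 (SE 0.30, limma adjusted p = 0.0335), with overlapping groups. Without E18.5 control replicate 3 it was 1.01 (adjusted p = 0.00288). Leaving out any one of 7 other control arrays (replicates 1 to 4 at E16.5 and replicates 1, 4 and 5 at E18.5) ended the call, at 0.61 to 0.74 with adjusted p of 0.0557 to 0.0956.

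In mutants, 8 of the 9 genes and 11 of the 12 probe sets were also called higher at E18.5 than at E16.5, where 28.5% of all genes and 25.1% of all probe sets were. For the genes dim at E16.5 the filter favours a rise here too, and its size is uncertain, so nothing is read from these counts. The rises were 4.71 for Aqp5 (SE 0.33), 2.04 for Scnn1g (SE 0.28), 1.99 for Aqp1 (SE 0.21), 1.88 for Scnn1a (SE 0.41) and 1.52 for Scnn1b (SE 0.25). Atp1b1 rose by 1.48 (SE 0.19), Nedd4l by 1.29 (SE 0.17) and Sgk1 by 1.00 (SE 0.30, limma adjusted p = 0.00882). In all 8 genes every E18.5 mutant lay above every E16.5 mutant, and the share of all genes with such a separation was not computed. Atp12a was the exception, at 0.20 (SE 0.10, adjusted p = 0.0827), and without E16.5 mutant replicate 5 it was 0.24 (adjusted p = 0.0494). Its mean was 3.90 in E16.5 mutants and 4.10 in E18.5 mutants, near the dim limit, so its change in mutants is poorly measured.

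**Figure D3:**
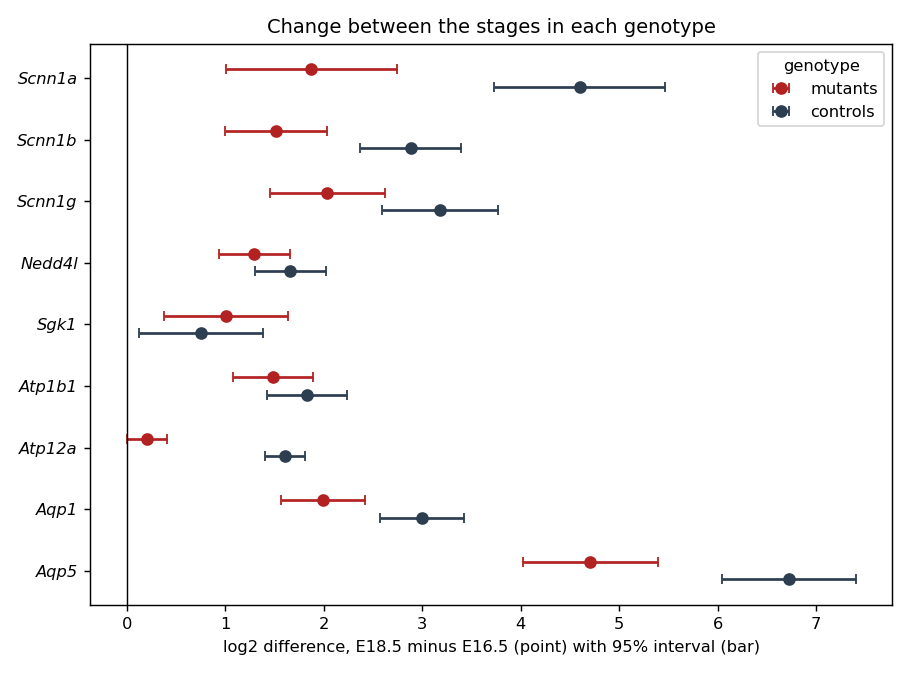
Log2 difference, E18.5 minus E16.5, on the horizontal axis for each of the 9 genes in mutants (red) and controls (dark blue), with limma 95% intervals as bars. The mutant point lies left of the control point for every gene but Sgk1, with the widest gaps at Scnn1a (1.88 against 4.60) and Aqp5 (4.71 against 6.72), both dim at E16.5.

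Whether the mutant effect itself changed with stage was tested as an interaction in the same limma fit (effect at E18.5 minus effect at E16.5, which is also the rise in mutants minus the rise in controls). It can be read only for genes measured at both stages. Scnn1a, Scnn1b and Aqp5 were dim in all 10 E16.5 embryos and Atp12a in 8 of 10, so their E16.5 difference was poorly measured. Their interaction cannot be told apart from the E18.5 effect alone. Of the 5 genes above the dim limit at E16.5, 1 was called lower, Aqp1, at -1.01 (SE 0.29, adjusted p = 0.0435). All 4 dim genes also passed, which makes 5 of 9 genes and 5 of 12 probe sets where 4.18% of all genes tested and 3.84% of all probe sets were called lower, and nothing is read from that count. For these 4, Atp12a had -1.40 (SE 0.14, adjusted p = 8.38e-06), Scnn1a -2.72 (SE 0.58, adjusted p = 0.00928), Aqp5 -2.02 (SE 0.46, adjusted p = 0.0136) and Scnn1b -1.37 (SE 0.35, adjusted p = 0.0237). Scnn1g (-1.15, SE 0.40, adjusted p = 0.0848), Nedd4l (-0.37, SE 0.24, adjusted p = 0.393), Atp1b1 (-0.34, SE 0.27, adjusted p = 0.491) and Sgk1 (0.25, SE 0.43, adjusted p = 0.776) were measured at both stages and not called. The comparison of stages in controls, the mutant effect at E18.5 and the interaction share the E18.5 controls.

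The calls of Atp12a, Scnn1a and Aqp5 held without any single array, while those of Scnn1b and Aqp1 did not. Scnn1b was -1.23 to -1.30 (adjusted p = 0.0504 to 0.0530) without E16.5 control replicate 3, E18.5 control replicate 1, 2 or 5, or E18.5 mutant replicate 2 or 4. Aqp1 lost its call without any of 13 arrays, namely E16.5 mutant replicates 3 to 5, E18.5 mutant replicates 1, 2 and 4, E16.5 control replicates 1 to 4 and E18.5 control replicates 2, 4 and 5 (-0.89 to -1.04, adjusted p = 0.0595 to 0.0884), and both lost it with sex as a covariate (adjusted p = 0.0839 and 0.0801). Scnn1g gained a call without E18.5 control replicate 3 (-1.41, adjusted p = 0.00808), E18.5 mutant replicate 3 (-1.33, adjusted p = 0.0336) or E18.5 mutant replicate 5 (-1.31, adjusted p = 0.0385).

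The genes also varied between embryos of one group. Among E18.5 mutants, replicate 3 was the highest for Scnn1a, Scnn1g, Aqp1 and Aqp5, and replicate 5 for Scnn1b, Sgk1, Atp1b1 and Atp12a. Replicates 2 and 4 were the lowest for 4 genes each, replicate 2 for Scnn1a, Scnn1g, Atp12a and Aqp1 and replicate 4 for Scnn1b, Nedd4l, Atp1b1 and Aqp5. The SD among E18.5 mutants was 1.04 for Scnn1a and 0.93 for Aqp5, against 0.75 and 0.60 among E18.5 controls. The control values rest on replicate 3, and without it they were 0.11 for Scnn1a and 0.30 for Aqp5 (n = 4). For Atp12a the SD was 0.07 in mutants, whose values were all near the dim limit, and 0.20 in controls (0.15 without replicate 3).

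Some markers of the cells that carry these transporters were also called at E18.5, where 15.5% of all genes tested were called lower and 18.0% higher. Of 6 alveolar type I markers tested, 5 were called lower in mutants and 0 higher, and the summed log2 level of the list was 60.8 to 65.0 in E18.5 mutants and 64.9 to 69.1 in E18.5 controls, with no marker dim. Of 8 blood endothelium markers, 6 were called lower and 0 higher (78.6 to 80.5 in mutants, 81.4 to 84.0 in controls, none dim). Of 7 pan-epithelial markers tested, 2 were lower and 1 was higher, and the list of 8 summed to 78.2 to 80.7 in mutants and 79.1 to 81.7 in controls, with Nkx2-1 dim in every group. Of 7 alveolar type II markers, 0 were called by limma and 1 had an unadjusted p under 0.05 (83.7 to 90.2 in mutants, 88.6 to 91.7 in controls, none dim). Among other lists, 3 of 3 mesothelial, 2 of 4 club cell, 2 of 8 mesenchymal and 1 of 2 erythroid markers tested were called lower, and 0 of 3 ciliated cell markers, with 0 higher in any of them. On lists this short, counts such as 2 of 7 pan-epithelial or 2 of 8 mesenchymal markers are close to the share over all genes, and nothing is read from them. At E16.5, 0 markers of any list were called, where 0.200% of all probe sets were, and 3 had an unadjusted p under 0.05. Without E18.5 control replicate 3, 1 alveolar type II marker (Sftpd) and 1 more club cell marker (Scgb1a1) were called lower and 1 more pan-epithelial marker (Esrp1) higher, and the counts of the other lists were the same. The part of these shifts in the results of the 9 genes was not tested.

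As a description, each gene was set against the mean of a marker list within the same array. Against pan-epithelial markers, whose mean differed by -0.09, the E18.5 differences were -2.76 for Scnn1a, -1.81 for Aqp5, -1.49 for Scnn1g, -1.24 for Scnn1b and -1.21 for Atp12a. That mean joins markers that moved in opposite directions, so it does not show that each was steady. Epcam averaged 11.16 in E18.5 mutants and 10.32 in E18.5 controls, and Krt19 10.99 and 12.18, both named after their values were seen. Against alveolar type I markers, whose mean differed by -0.87, Scnn1a was at -1.97, Aqp5 at -1.02, Scnn1g at -0.71, Scnn1b at -0.45 and Atp12a at -0.43. On that scale Nedd4l (-0.04) and Atp1b1 (0.13) were near 0, and Sgk1 was at 1.11, with all 5 mutants above all controls. Against alveolar type II markers, whose mean differed by -0.48, Scnn1a was at -2.36 and Aqp5 at -1.41. Aqp1 against blood endothelium markers, whose mean differed by -0.41, was at -0.75, with 4 of 5 mutants below all controls. Without E18.5 control replicate 3, Scnn1a was at -3.15 against pan-epithelial markers, and against alveolar type I markers Nedd4l changed sign (0.05). Atp1b1 was then at 0.22 against alveolar type I markers, with 5 of 5 mutants above all controls, where 0 were with replicate 3 kept.

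**Figure D4:**
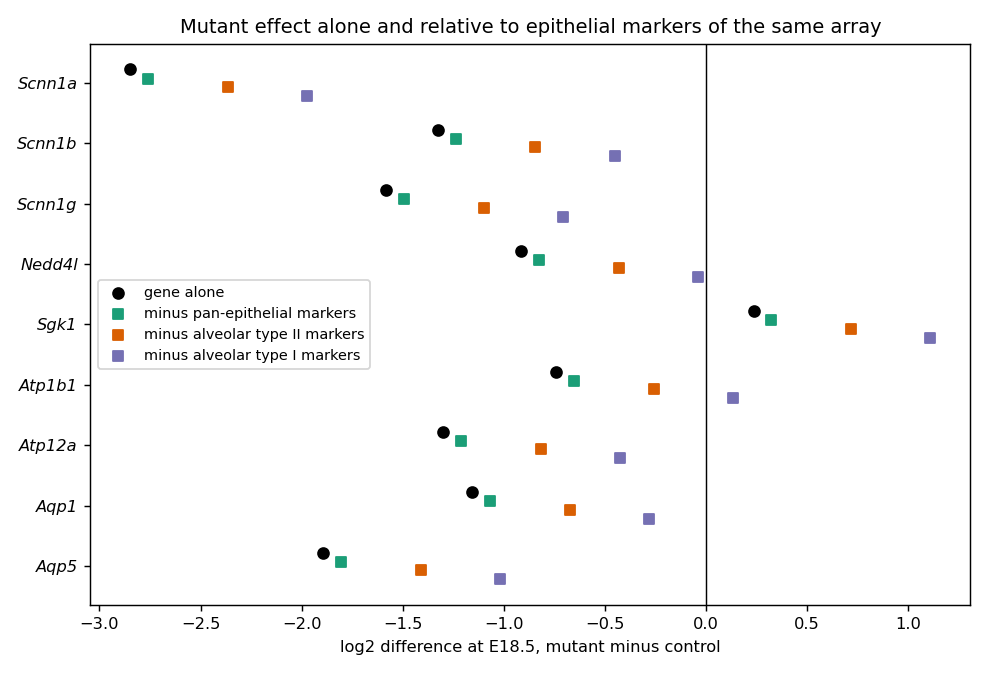
E18.5 log2 difference, mutant minus control, on the horizontal axis for each gene alone (black circles) and after subtraction of the mean of pan-epithelial (green), alveolar type II (orange) or alveolar type I (violet) markers of the same array. Scnn1a and Aqp5 stay below -1 on all 4 scales, while Nedd4l and Atp1b1 lie at -0.04 and 0.13 against alveolar type I markers.

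Other genes of the same transport machinery were listed by their known roles. Of 81 genes in 5 lists, 64 were on the array and 39 were tested. At E18.5, 9 of the 39 were called lower in mutants and 2 higher, where 15.5% and 18.0% of all genes were, with a median difference of -0.12. Without E18.5 control replicate 3 these were 11 lower and 3 higher, with Wnk1 and Furin added among the lower and Fxyd6 among the higher. Of 7 sodium pump subunits and FXYD proteins, small regulators of that pump, 3 fell and 0 rose. Fxyd4, first described as a corticosteroid-induced factor, averaged 2.59 ± 0.64 in E18.5 mutants and 5.18 ± 0.47 in E18.5 controls (SD, n = 5 each), a difference of -2.60 (SE 0.24, limma adjusted p = 2.89e-07), with the mutant mean dim. Fxyd5 fell by 0.88 (SE 0.14) and Fxyd1 by 0.69 (SE 0.18). Fxyd4 was also dim at E16.5, as were Kcne2 and Kcnj15 of the potassium channel list. These genes passed the filter through their E18.5 values, so the counts over the lists carry no test.

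Of 15 other regulators of the channel, 4 fell and 1 rose. Per1, a clock gene that raises Scnn1a transcription in mouse kidney cells, averaged 5.86 ± 0.54 in E18.5 mutants and 8.36 ± 0.25 in E18.5 controls, a difference of -2.50 (SE 0.27, limma adjusted p = 2.16e-06). Tsc22d3, a glucocorticoid-induced protein that raises channel activity, fell by 1.34 (SE 0.18), and Spint1, an inhibitor of membrane serine proteases, fell by 0.52 (SE 0.12). The others were Cav1 (-0.41), the scaffold of caveolae, and the deubiquitinase Usp10, which rose (0.43), both named after their values were seen. Per1 was also the 1 gene of the 39 called at E16.5, at -1.53 (SE 0.27, limma adjusted p = 0.0136), where 0.174% of all genes were called lower.

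Of 11 genes of chloride secretion and acid-base transport, 0 passed limma's test at either stage, with an unadjusted p under 0.05 for 0 at E18.5 and 1 at E16.5. Cftr, the chloride channel of airway and fetal epithelium, averaged 8.28 ± 0.18 in E18.5 mutants and 8.51 ± 0.26 in E18.5 controls (-0.23, SE 0.16, adjusted p = 0.268), and the cotransporter Slc12a4 differed by -0.23 (SE 0.16, adjusted p = 0.290). Of 5 potassium channel genes, Kcne2 (-1.99, SE 0.50, adjusted p = 0.00570) and Kcnj15 (-1.07, SE 0.40, adjusted p = 0.0499975, at the edge of the threshold, and 0.00159 without E18.5 control replicate 3) fell and Kcnk1 rose (0.38, SE 0.09, adjusted p = 0.00387). Aqp4, the basolateral water channel of airway and the only other aquaporin tested, was at 6.61 ± 0.53 in E18.5 mutants and 6.60 ± 0.20 in E18.5 controls (0.01, SE 0.22, adjusted p = 0.980).

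At E16.5 the largest differences in lists without a call were 0.55 for Fxyd6 and 0.22 for Atp1b2, -0.33 for Kcnj15 and -0.26 for Kcnk5, -0.32 for Ano1 and 0.30 for Slc4a1, and 0.20 for Aqp4. From E16.5 to E18.5, 22 of the 39 genes were called higher in mutants and 4 lower, where 28.5% and 27.4% of all genes were. In controls 25 were higher and 5 lower, where 35.2% and 35.3% were. Fxyd4, Kcne2 and Kcnj15 passed the filter through their E18.5 values, which favours a rise, so nothing is read from these counts. The interaction called 3 lower and 1 higher, where 4.18% and 3.01% of all genes were. They were Tsc22d3 (-1.06), Fxyd5 (-0.78), Kcnk1 (0.47) and Fxyd4 (-2.59), named after their values were seen. Fxyd4 was dim at E16.5, at a mean of 2.00 in both groups, so its interaction cannot be told apart from the E18.5 effect alone.

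**Figure D5:**
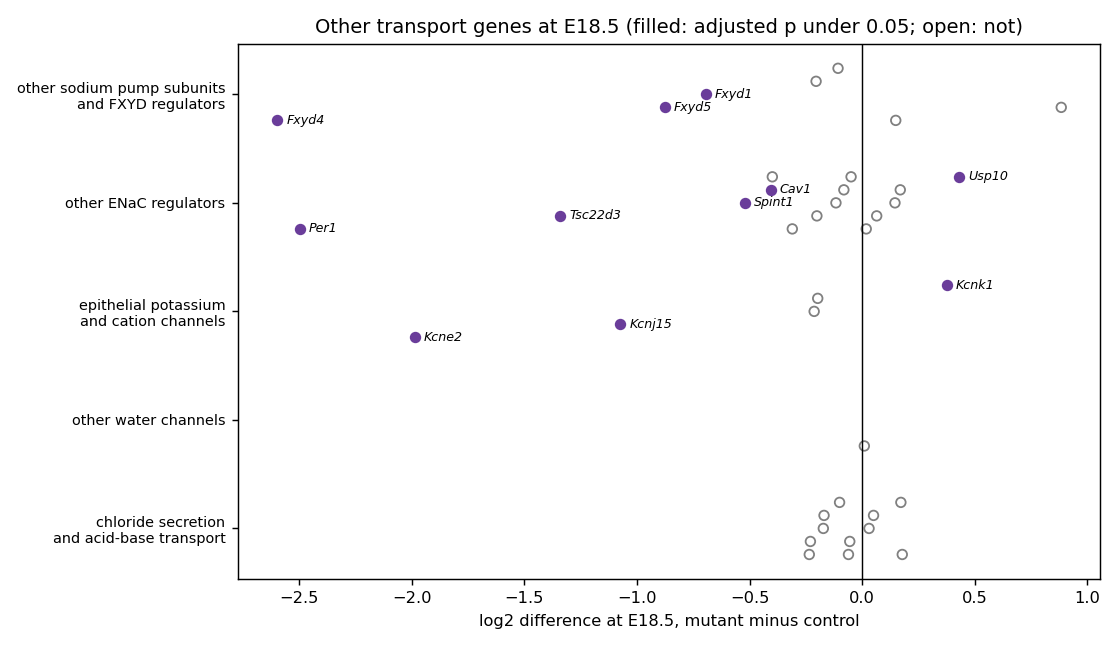
E18.5 log2 difference, mutant minus control, on the horizontal axis for the 39 tested genes of 5 lists of other transport genes. Each point is a gene, filled and named where the limma adjusted p is under 0.05 and open otherwise, with 9 filled points below 0 and 2 above.

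The genes most like each member were taken as those with the smallest root mean square difference in log2 value over the 20 arrays, after each probe set's mean was subtracted. The 20 arrays share 4 groups, so likeness here mostly reflects group means. Nedd4l and Atp1b1 were close to each other (0.193), and Rin2 was among the 3 nearest genes of both (0.175 from Nedd4l and 0.183 from Atp1b1). Atp1b1 was also close to Serping1 and Cd9 (0.169 each), and Nedd4l to H6pd (0.196).

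Ace was near both Scnn1b (0.267) and Scnn1g (0.275), and the alveolar type I marker Emp2 near both Scnn1g (0.279) and Aqp1 (0.268). The nearest gene to Scnn1b was Slco3a1 (0.230), with Tmem62 at 0.273, and to Scnn1g it was Tmem71 (0.270). For Scnn1a the nearest were Slc4a5 (0.389), Col4a3 (0.409) and Sphk1 (0.456). Aqp1 was also near Cryab (0.237) and Timp3 (0.266).

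Atp12a lay nearest to Tgm2 (0.196), Cdkn1a (0.198) and Ddr1 (0.204). Aqp5, which spans the widest range, had its nearest genes farther off, at 0.356 for Cp, 0.449 for Scd1 and 0.502 for Cyp2e1. Sgk1 lay nearest to Trpc1 (0.257), Egfl6 (0.269) and Pias1 (0.272). None of the genes nearest to Sgk1, Scnn1a, Atp12a or Aqp5 was listed for another member, so this does not set Sgk1 apart.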

How the data were processed

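Per the submitters' processing notes, the authors summarised the arrays with GCRMA, which corrects background, scales arrays to each other and gives 1 log2 value per probe set. Its version was not given in the sources used here. No further transformation was applied to the deposited values. Of 22690 probe sets, 20380 name 1 gene, 691 several and 1555 none, and 64 are array controls. Only those naming 1 gene were tested, where log2 was above 4 in at least 5 of 20 arrays (12517 probe sets, 8068 genes). A gene is represented by its probe set with the highest mean.

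In R 4.3.3, limma 3.58.1 (lmFit, eBayes) fitted the 4 group means over all 20 arrays. Tests were two-sided, with Benjamini-Hochberg adjustment over all probe sets tested and calls at an adjusted p under 0.05. Precision is limited by 5 arrays per group. Same-numbered embryos of different groups deviated together in 15 of 30 pairs (r above 0.1, range -0.424 to 0.595). The labels do not say that the numbers mark a litter or batch, so the numbers were not taken as pairs. Alternatives were 13 settings and leaving out each of 20 arrays. The code was tested on simulated data.

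Members, gene lists, markers and tests were chosen with earlier results of these data known. Named genes are all members, Nr3c1, for each list and mutant comparison up to 3 called genes with the largest change (up to 2 as values where none was called), and the 3 genes most like each member. Promoter windows are from RefSeq (GRCm38.p6), which matched 6 of the 9 members with 11 windows, and 32851 windows were searched on both strands. Chromosomes are those of RefSeq gene records. Python 3.11.15 with matplotlib 3.10.9 drew the figures.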

Additional observations from a re-analysis of the deposited data

Results flagged for a closer look

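Among the 36 groups of 5 embryos examined (9 genes in 4 groups), 5 held an embryo far from the rest of its group. Chance alone marks about 1 in 20 independent groups. These 36 read the same embryos for each gene and are not independent, so nothing is read from the count. Replicate 3 of the E18.5 controls was low for Scnn1a (5.55, next lowest control 7.10), Scnn1b (5.04, next 6.24) and Scnn1g (8.49, next 9.61). Replicate 5 of the E16.5 controls was high for Aqp1 (8.54, next highest control 7.95) and for Aqp5 (2.34, next 2.22), where all values are dim.

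In limma's interaction test (mutant effect at E18.5 minus that at E16.5), Aqp1 was the 1 called gene of the 5 measured at both stages (-1.01), and its call was lost without any of 13 single arrays. The test also passed for Scnn1a (-2.72), Aqp5 (-2.02), Atp12a (-1.40) and Scnn1b (-1.37), but these were dim in 8 to 10 of the 10 E16.5 embryos. Their E16.5 effect was poorly measured, so these values do not show a change of effect with stage.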

How the results depend on the processing

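For the E18.5 effect on member probe sets, 380 of 392 values under the alternatives kept their direction and side of the threshold, 11 gained a call and 1 changed sign. At E16.5, 384 of 392 did and 8 changed sign. For the change between stages 382 of 392 did in controls and 391 of 392 in mutants, and for the interaction 345 of 380, with 25 calls lost, 4 gained and 6 signs changed. The causes were not tested. Alternatives without E18.5 control replicate 3 for the gene lists, SDs and marker-relative values were chosen after seeing the data; they are given beside those results, and the alveolar type II count became 1, against 0.

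The count of all probe sets called at E16.5, 25, was 15 with only the groups compared, 54 with array weights, 9 with sex as a covariate and 14 at an adjusted p under 0.01. At E18.5, 3899 became 2255 at 0.01. In controls between stages, 8586 became 5718 with 1 probe set per gene, where fewer were tested. For the interaction, 828 became 2990 with array weights, 525 with sex and 247 at 0.01, and the 5 member probe sets became 3 with sex and 2 at 0.01. With array weights the E16.5 differences of Scnn1a (0.03) and Sgk1 (0.26) and the Sgk1 interaction (-0.22) changed sign. The Sgk1 rise in controls was not called without a filter on dim probe sets (adjusted p = 0.0619) or with sex (0.53, adjusted p = 0.111), nor was the Aqp1 interaction without a filter (adjusted p = 0.0747).

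With the replicate number as a block, which the labels do not give as a pairing, 11 of 12 member probe sets were called at E18.5, against 9, since the remaining Atp1b1 probe sets passed (adjusted p = 0.0419 and 0.0456), and 4195 of all probe sets were. Array weights also gave 11 (limma adjusted p = 0.0391 and 0.0247 for these, 5335 of all probe sets called). Using only the 2 groups compared gave 11 as well (0.024 and 0.0321, 3312 of all probe sets called).

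Leaving out 1 array gave 9 to 11 member calls at E18.5 (3055 to 4767 over all probe sets), 0 at E16.5 (16 to 31), 11 to 12 in controls (8179 to 8722) and in mutants (6090 to 7108) between stages, and 3 to 6 in the interaction (523 to 1923). Sign changes occurred at E16.5 for Scnn1a (-0.24 to 0.10), Scnn1b (-0.06 to 0.13) and Sgk1 (-0.14 to 0.21), at E18.5 for Sgk1 (-0.02 to 0.38), and in the interaction for Sgk1 (-0.01 to 0.40) and the Atp1b1 probe set with the smallest interaction (-0.24 to 0.07).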
